A study of Mus musculus with 16 samples.

Results

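The nuclear genes for the subunits of the mitochondrial respiratory chain were chosen by name. Symbols were taken that start with *Nduf* followed by a, b, c, s or v and a number, that start with *Uqcr* or *Atp5*, or that start with *Cox* followed by a number from 4 to 8. Of 22609 listed genes, 81 had such a symbol. A minimum of 10 reads in at least 4 libraries left 75 genes, which were 36 genes of complex I, 8 of complex III, 15 of complex IV and 16 of complex V. Complexes I, III and IV pass electrons from NADH to oxygen and pump protons across the inner mitochondrial membrane, and complex V, the ATP synthase, uses the proton gradient to make ATP. All 4 complexes also hold subunits encoded in mitochondrial DNA, and 0 mitochondrially encoded genes were listed in these data. Sensory neurons have long axons and a high electrical activity, and oxidative phosphorylation supplies most of their ATP.

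Neurons were sorted from trigeminal ganglia (TG), nodose/jugular ganglia (NG/JG), thoracolumbar dorsal root ganglia (T10-L1 DRG) and lumbar dorsal root ganglia (L3-L5 DRG) of young adult male C57BL/6J mice, with 4 RNA-seq libraries for each ganglion. All mice were naïve and carried a Pirt cre allele and a Rosa26 LSL-tdTomato reporter (Pirt cre/-; Rosa26 LSL-tdTomato/+), so that the label followed a Cre of sensory neurons, and dim cells were left out of the gate. Left and right ganglia were dissociated with liberase and dispase, sorted in 2 cycles and made into SMART-seq2 libraries. Nothing in the labels ties a library to an animal, and the p-values below measure the spread between libraries.

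Reads on genes ranged from 4735624 to 13333318 per library. The 11 sensory neuron markers all had reads in every ganglion, with summed levels from 1435 to 15118 CPM (counts scaled to a common total of reads on genes). Markers of 8 satellite glia genes reached 13352 to 65829 CPM in sum and 5 myelinating Schwann cell genes 7926 to 53314 CPM, so RNA of other cells was present in all 16 libraries. In L3-L5 DRG library 4, 66.6% of the uniquely aligned reads lay outside genes, against 29.6% to 51.5% in the other libraries. Among TG libraries 2 to 4 the chi-square of raw counts was 29.9 to 33.3 per gene, the lowest for pairs within a ganglion. This value rises with depth, and TG libraries 2 to 4 had only 5082985 to 5820254 reads on genes. It therefore does not rank the likeness of libraries across ganglia. TG library 1 differed from TG libraries 2 to 4 with 214 to 233, and pairs of libraries within the other ganglia were at 62.5 to 375. For each comparison with TG, the edgeR count of adjusted calls over the whole set and its median are also given without TG library 1. Counts by complex, DESeq2 counts, unadjusted counts and pair counts from the fit over all 16 libraries are not.

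Of the 81 genes, 6 did not reach the read minimum. Of these, *Cox6a2*, *Cox8b*, *Cox7b2* and *Cox8c* are isoforms known from heart, skeletal muscle or testis, and their highest counts in a library were 19, 6, 6 and 5. *Ndufs5*, an accessory subunit of complex I, and *Atp5g2*, which encodes the c subunit of the ATP synthase ring, are subunits of complexes that every cell with mitochondria uses. *Ndufs5* was at 0 reads in 15 of 16 libraries with at most 4 reads, and *Atp5g2* was at 0 in 5 libraries with at most 11 reads. Both transcripts consist largely of sequence that occurs more than once in the genome. All 50-base stretches of a transcript, the length of the sequenced reads, were searched in the NCBIM37 genome: 100% of those of *Atp5g2* and 80.0% of those of *Ndufs5* had a second exact copy elsewhere. The following coding stretches of 4 low genes, with the strand of the gene and entirely in lower case because the whole stretch recurs, were each found at their own gene and at further places.
Atp5g2, chr15:102495559-102495608 (-), 4 other places: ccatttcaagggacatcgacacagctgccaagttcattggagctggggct
Ndufs5, chr4:123393273-123393322 (-), 1 other place: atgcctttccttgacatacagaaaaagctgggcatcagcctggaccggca
Atp5l, chr9:44721499-44721548 (-), 9 other places: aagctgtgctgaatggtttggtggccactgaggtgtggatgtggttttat
Cox7c, chr13:86185383-86185432 (-), 3 other places: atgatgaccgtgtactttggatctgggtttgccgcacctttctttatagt

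Of the 81 genes, 38 had no repeated stretch and 8 had more than 50% of their stretches elsewhere. The 12 genes with at least 40% repeated stretches had a median of 30.5 RPKM (CPM per kilobase of transcript, mean over 16 libraries), from 0.068 to 149. The other 69 genes had a median of 222 RPKM, up to 1041. Low levels of *Atp5g2*, *Ndufs5*, *Atp5l*, *Atp5g1*, *Cox7c* and *Ndufb4* thus stood beside a large share of sequence that a 50-base read cannot place. The part of this in their levels was not tested, and it applies to the level of *Atp5l* and the share of *Atp5g1* given below.

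**Figure D1:**
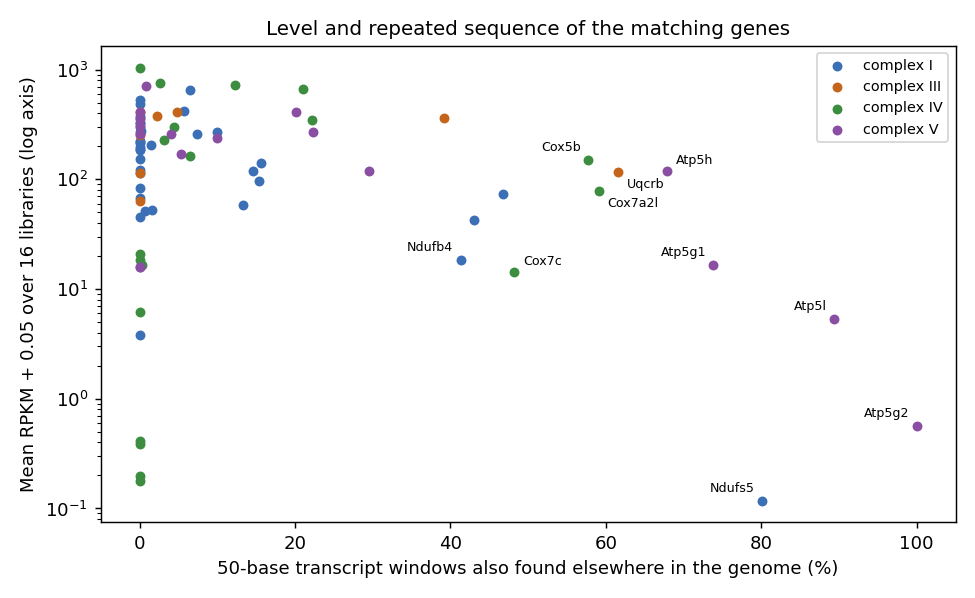
Each point is 1 of the 81 genes, with the share of its 50-base transcript stretches that also occur elsewhere in the genome (x axis, %) and its mean RPKM plus 0.05 over 16 libraries (y axis, log scale), coloured by complex. All genes with more than 70% repeated stretches lie below 20 RPKM, while genes with few repeats span the whole range, the 4 lowest of them being *Cox6a2*, *Cox8b*, *Cox7b2* and *Cox8c*.

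The 75 genes were among the more abundant transcripts of these libraries, which also held RNA of other cells. By mean RPKM, 60 of 75 lay above the 90th percentile of all genes with reads, and the median gene lay at percentile 97.6. The medians of the mean RPKM were 192 in complex I, 306 in complex III, 164 in complex IV and 247 in complex V. In complex I the highest gene was *Ndufa4* (648 ± 338 RPKM, SD over 16 libraries), whose product is now counted with complex IV, and the lowest was its paralog *Ndufa4l2* (3.74 ± 4.55). In complex III the range ran from *Uqcrc2* (63.4 ± 21.4), a core protein, to the hinge protein gene *Uqcrh* (412 ± 237). *Cox4i1*, the general isoform of subunit 4, was the highest gene of complex IV and of the whole set (1041 ± 605), and its isoform *Cox4i2* was the lowest of complex IV (6.11 ± 7.16). *Atp5b*, the catalytic beta subunit of the ATP synthase, was the highest of complex V (703 ± 132), and *Atp5l*, subunit g, the lowest (5.23 ± 3.52, with 89.4% repeated stretches).

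The spread within a ganglion differed between the genes. The coefficient of variation of CPM, averaged over the 4 ganglia, was lowest for *Atp5b* (15.7%), *Atp5f1* (18.9%), which encodes subunit b of the stalk, and *Cox8a* (19.6%). It was highest for *Cox4i2* (123%), *Ndufa4l2* (95.7%) and *Cox7a1* (73.7%), which are isoforms with tissue-restricted expression and were low here.

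All 4 complexes together took 2.43%, 2.55% and 2.55% of the reads on genes in TG libraries 2, 3 and 4 but 1.10% in TG library 1. The T10-L1 DRG libraries were at 0.984%, 1.10%, 0.825% and 0.901%, the L3-L5 DRG libraries at 1.11%, 1.29%, 1.32% and 1.07%, and the NG/JG libraries at 0.862%, 1.43%, 1.23% and 1.25%. Thus 3 TG libraries were above all 12 libraries of the other ganglia, and TG library 1 was within their range. The summed levels were 21584 ± 7047 CPM in TG (SD, n = 4), 11980 ± 1263 in L3-L5 DRG, 11928 ± 2371 in NG/JG and 9517 ± 1168 in T10-L1 DRG. By complex, TG library 1 was at 4262 CPM for complex I, 1257 for complex III, 2008 for complex IV and 3522 for complex V. The other TG libraries were at 10661 to 11410, 2225 to 2497, 5823 to 6085 and 5302 to 5867. In complex V, where *Atp5b* and *Atp5a1* hold many of the reads, TG libraries 2 to 4 were closest to the other ganglia, whose highest library was at 4671 CPM.

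**Figure D2:**
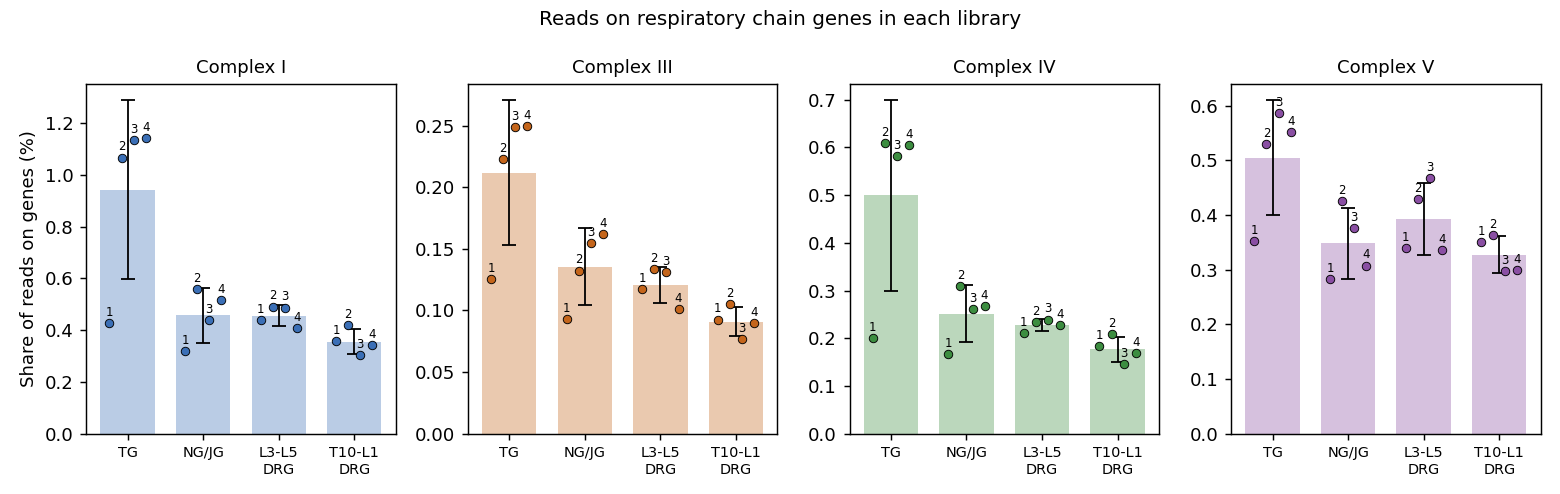
Share of reads on genes (y axis, %, from 0) taken by the genes of each complex in the 4 ganglia. Points are libraries with their number, bars are means and error bars are SD (n = 4). TG libraries 2 to 4 lie above every library of the other ganglia in all 4 complexes, and TG library 1 lies among them.

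The largest difference was between TG and T10-L1 DRG neurons. Of the 75 genes, 71 had a positive log2 fold change (TG over T10-L1 DRG), with a median of 1.93, or 3.82-fold, beside -0.03 over all 12914 genes tested. In edgeR's quasi-likelihood test with Benjamini-Hochberg adjustment, 48 of 75 genes were higher in TG and 0 were higher in T10-L1 DRG, where 4.33% of all genes were higher in TG and 5.87% were called in either direction. DESeq2 called 63 of 75, beside 15%, and a fit over all 16 libraries 41, beside 1.67%. All TG libraries were above all T10-L1 DRG libraries in CPM for 32 of 75 genes, beside 5.30% of all genes, and the reverse held for 2 genes, beside 13.2%. With TG library 1 left out these were 65 genes, beside 14.3%, and 2 genes, beside 27%. These calls stood close to the threshold, with adjusted p from 0.0254 to 0.046. Without TG library 1, 65 genes were called, beside 3583 among all genes, where 758 of all genes were called with that library. The median rose to 2.23, and the log2 fold changes of the 48 genes were 0.12 to 0.34 higher than with that library. Without any 1 of TG libraries 2 to 4 or T10-L1 DRG libraries 1 to 3, 0 genes were called, beside 0 or 1 among all genes. Without T10-L1 DRG library 4, 2 genes were called, beside 119 among all genes. In these fits the median stayed between 1.81 and 1.97, and the lowest adjusted p by edgeR was between 0.049 and 0.105. Without TMM scaling the count was 24, beside 455 among all genes, and the median 1.52, with the median of all genes at -0.39.

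In complex I, 25 of 36 genes were higher in TG than in T10-L1 DRG. Complex I holds nuclear-encoded core subunits, among them those that carry the flavin and the iron-sulfur clusters, and many accessory subunits around them. *Ndufb11*, an accessory subunit (chromosome X, 20192452 to 20194745, NCBIM37), was at 139, 229, 181 and 208 CPM in TG and at 79.2, 57.9, 38.3 and 59.6 in T10-L1 DRG. All TG libraries were above all T10-L1 DRG libraries, TG library 1 included. Its log2 fold change was 2.08 (adjusted p = 0.0254 by edgeR, standard error 0.34), and 12.9% of its exon length lies opposite exons of *Rbm10*. *Ndufb9*, another accessory subunit (chromosome 15, 58765365 to 58771044), was at 256, 515, 500.3 and 517 CPM in TG and at 136, 175, 127 and 126 in T10-L1 DRG. TG library 1 lay between the other TG libraries and T10-L1 DRG. The log2 fold change was 2.06 (adjusted p = 0.0254 by edgeR, standard error 0.33).

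The other accessory subunits called were *Ndufa1*, *Ndufa2*, *Ndufa3*, *Ndufa5*, *Ndufa6*, *Ndufa7*, *Ndufa8*, *Ndufa10*, *Ndufa11*, *Ndufa12*, *Ndufa13*, *Ndufb2*, *Ndufb3*, *Ndufb5*, *Ndufb6*, *Ndufb7*, *Ndufb8*, *Ndufc2* and *Ndufs4*, with *Ndufa4*. Counted with *Ndufb9* and *Ndufb11* they were 22 of 28 accessory genes, all 28 of which had positive log2 fold changes, from 1.20 to 2.56. *Ndufa5* had the highest of these, with 361, 320 and 334 CPM in TG libraries 2 to 4 and 61.4 in TG library 1, beside 70.8, 64.6, 56.2 and 51.5 in T10-L1 DRG. TG library 1 thus lay within the T10-L1 DRG range for this gene. *Ndufa13* (30.2% of its exon length opposite *Tssk6*), had 204, 583, 673 and 748 CPM in TG against 122, 174, 110 and 154.

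The core subunits of complex I were less alike, and this division by role was made after the values were seen. The same holds for the divisions by role within complexes III, IV and V below. *Ndufv2* (log2 fold change 2.00), *Ndufs7* (1.93) and *Ndufs8* (1.89) were called higher in TG. *Ndufs3* (1.56, adjusted p = 0.0732 by edgeR) and the flavin-binding *Ndufv1* (0.42) were not. *Ndufs1*, the largest subunit (chromosome 1, 63190170 to 63223396), had 97.7, 78.1, 36.9 and 66.9 CPM in TG and 163, 119, 147 and 120 in T10-L1 DRG. All TG libraries were below all T10-L1 DRG libraries in CPM, with a log2 fold change of -0.63 (adjusted p = 0.31 by edgeR, standard error 0.33).

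In complex III, 5 of 8 genes were higher in TG. *Uqcrq*, which encodes a small subunit next to cytochrome b (chromosome 11, 53241424 to 53244333), was at 185, 367, 370.1 and 343 CPM in TG and at 113, 130.5, 74.8 and 89.4 in T10-L1 DRG. The groups did not overlap, and the log2 fold change was 2.03 (adjusted p = 0.0254 by edgeR, standard error 0.34). *Uqcr11*, the smallest subunit, had the largest change of the complex (2.25), and *Uqcrh*, *Uqcr10* and the Rieske iron-sulfur protein *Uqcrfs1* (1.36) were also called. The core proteins did not pass, with log2 fold changes of 1.07 for *Uqcrc1* (adjusted p = 0.0562 by edgeR) and 0.59 for *Uqcrc2*. For *Uqcrc2*, TG library 1 was the highest TG library at 215 CPM, with the others at 84.6, 96.2 and 108, and the T10-L1 DRG libraries ran from 86.4 to 136.

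In complex IV, 8 of 15 genes were higher in TG, 7 of them among the 10 general subunits. *Cox4i1* (chromosome 8, 123192190 to 123198109) was at 510 CPM in TG library 1 and at 1472, 1387 and 1615 in the others, against 452, 466, 344 and 411 in T10-L1 DRG. Every TG library was higher, and the log2 fold change was 1.98 (adjusted p = 0.0287 by edgeR, standard error 0.40). *Cox7a2* (chromosome 9, 79603048 to 79607660), the general isoform of subunit 7a, was at 210, 379, 416 and 390 CPM against 142, 154, 113 and 130, also without overlap. *Cox5b*, *Cox6a1*, *Cox6b1*, *Cox6c*, *Cox8a* and *Cox7a2l* were called too, the last of which is a supercomplex assembly protein rather than a subunit. *Cox7b* (1.53) and *Cox5a* (1.89) had an adjusted p of 0.0543 each by edgeR. *Cox4nb*, which is now named *Emc8* and belongs to another protein complex, had a log2 fold change of 0.69 and was not called.

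In complex V, 10 of 16 genes were higher in TG. All 4 genes of the peripheral stalk (*Atp5f1*, *Atp5h*, *Atp5j* and *Atp5o*) and 3 of 5 genes of the membrane sector (*Atp5g3*, *Atp5j2* and *Atp5k*) were among them. *Atp5f1* (chromosome 3, 105745616 to 105763017, with 8.21% of its exon length opposite *Wdr77*) was at 224, 243, 328 and 275 CPM in TG and at 125, 140, 108 and 115 in T10-L1 DRG. The groups did not overlap, TG library 1 was near the others, and the log2 fold change was 1.51 (adjusted p = 0.0254 by edgeR, standard error 0.27). *Atp5k*, subunit e, was at 59.7, 105, 99.8 and 138 CPM against 30.6, 39.8, 21.0 and 26.9, a log2 fold change of 2.16.

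The catalytic F1 sector behaved unevenly. *Atp5c1* (1.39), *Atp5d* (1.85) and *Atp5e* (1.83), the gamma, delta and epsilon subunits of the central stalk, were called higher in TG. The subunits that form the hexamer were not. *Atp5b* (chromosome 10, 127520329 to 127527447) was at 1387, 1042, 1293 and 1140 CPM in TG and at 1370, 1349, 1291 and 1156 in T10-L1 DRG, with a log2 fold change of 0.27 (adjusted p = 0.586 by edgeR, standard error 0.25). *Atp5a1* was at 565, 329, 408 and 342 CPM in TG against 648, 800.4, 687 and 607, and every TG library was lower. Its log2 fold change after TMM scaling was -0.39 (adjusted p = 0.416 by edgeR, standard error 0.25). Thus the alpha and beta subunits of one hexamer, which are present in equal number in the enzyme, did not pass the test, while 10 other genes of the complex did.

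Transcript length moved with these differences. The 52 genes with transcripts under 1 kb had a median log2 fold change of 1.97 (TG over T10-L1 DRG), the 17 genes of 1 to 2 kb 1.36, and the 6 genes of 2 kb or more 1.13. All other genes tested had medians of 1.07 under 1 kb, 0.40 from 1 to 2 kb and -0.41 from 2 to 4 kb. The medians without TG library 1 were 2.25, 1.57 and 1.35 for the respiratory chain and 1.24, 0.45 and -0.59 for the other genes. Genes under 1 kb took 31.4% to 31.9% of the reads in TG libraries 2 to 4, 17.6% in TG library 1 and 14.6% to 18.9% in the 12 libraries of the other ganglia. The same 3 libraries had 0.732% to 0.853% of reads on 83 cytosolic ribosomal protein genes, against 0.381% in TG library 1 and 0.230% to 0.399% elsewhere. For 76 mitochondrial ribosomal protein genes the shares were 0.614% to 0.659%, 0.269% and 0.209% to 0.365%. Of these lists, 19 of 68 cytosolic and 23 of 75 mitochondrial ribosomal protein genes tested were higher in TG than in T10-L1 DRG, beside 4.33% of all genes, and 0 were lower. When TG library 1 was left out, 45 of 71 and 60 of 75 were higher and 0 lower, where 3583 of all genes were called in either direction. Some divisions by role also went with length. The core genes of complex I that were called had 870.5 to 963 bp, and *Ndufs3*, *Ndufv1* and *Ndufs1* had 1046, 1097.5 and 2789.5. In the F1 sector the called genes had 421 to 1000 bp, and *Atp5b* and *Atp5a1* had 1916 and 2471. Among the accessory genes, *Ndufa10* (2020 bp), *Ndufb2* (2413) and *Ndufa11* (2661) were called. The part of transcript length in the difference and in these divisions was not tested.

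**Figure D3:**
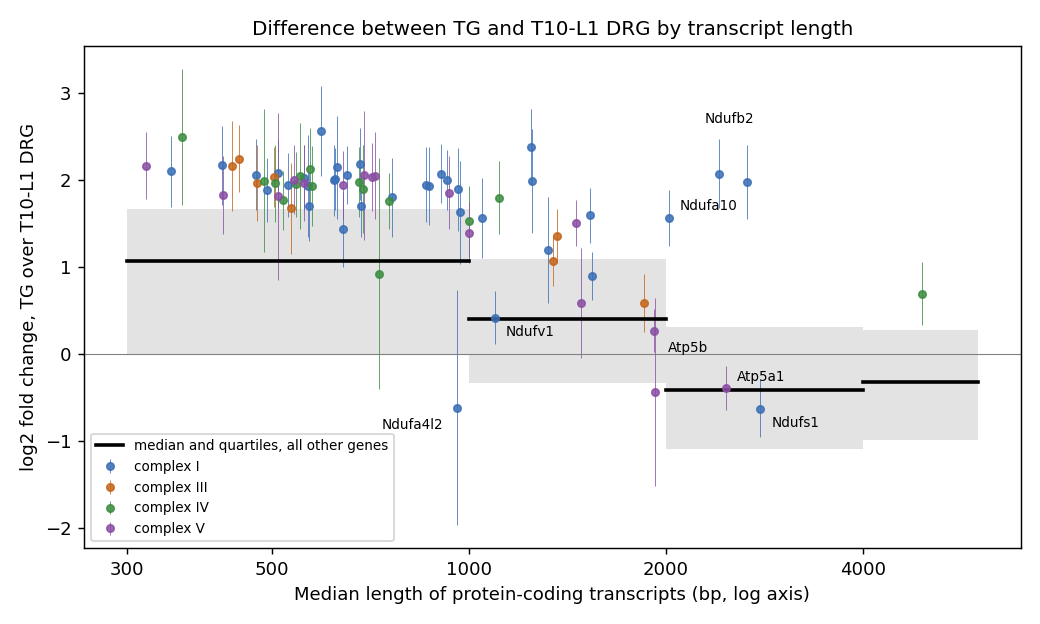
Each point is 1 of the 75 genes, with the median length of its protein-coding transcripts (x axis, bp, log scale) and its log2 fold change of TG over T10-L1 DRG from edgeR (y axis, with the standard error). Black lines and grey bands give the median and quartiles of all other tested genes by length class. Most genes under 1 kb lie near 2, above the band of the other genes, and *Ndufs1* and *Atp5a1* lie below 0.

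Markers of other cell types also moved between these groups. The 8 satellite glia markers summed to 34585 to 65829 CPM in TG and 21801 to 32119 in T10-L1 DRG, with none at 0. The 5 Schwann cell markers summed to 22550 to 53314 and 12541 to 25582 CPM, and 6 fibroblast markers to 4552 to 7247 and 3551 to 12740. The 7 neutrophil markers summed to 0 to 46.0 CPM in TG, with *Camp* and *Elane* at 0, and to 100.5 to 1050 in T10-L1 DRG, with *Elane* at 0. The 7 macrophage markers summed to 1754 to 6566 and 545 to 11154 CPM, and 7 endothelial and mural markers to 123 to 703 and 384 to 1217. The 7 striated muscle markers summed to at most 18.04 CPM in any library, with *Myh4* and *Tnnc2* at 0 in TG, and *Hba-a1* and *Hbb-b1* of the 3 erythroid markers were at 0 in all ganglia. The 11 immediate-early and dissociation genes summed to 8428 to 23261 CPM in TG and 14093 to 40066 in T10-L1 DRG. The part of these cells in the respiratory chain values was not tested, and in sorted bulk samples fewer cells of a type and less RNA per cell cannot be told apart.

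Between TG and L3-L5 DRG, 70 of 75 genes had positive log2 fold changes (TG over L3-L5 DRG), with a median of 1.55 beside -0.03 over all genes. In edgeR's quasi-likelihood test, 0 of 75 genes and 0 of 12900 genes in all passed after adjustment (0.00%). At an unadjusted p under 0.05, 59 of 75 genes were higher in TG, beside 10.1% of all genes, and 1 gene was lower, beside 8.02%. With DESeq2, 41 genes were called, all higher in TG, beside 11.3% of all genes in either direction. With all 16 libraries in one fit, 20 were, beside 1.45%. Without TG library 1, edgeR called 59 genes, beside 2038 among all genes, and the median was 1.83. The 3 genes higher in TG with the lowest p were small accessory subunits of complex I. *Ndufb11* was at 63.3, 67.4, 58.9 and 69.9 CPM in L3-L5 DRG, below every TG library (adjusted p = 0.0829 by edgeR for a log2 fold change of 1.94 with a standard error of 0.34). *Ndufb5* (2.07) and *Ndufa13* (2.17) had the same adjusted p. The gene with an unadjusted p under 0.05 in the other direction was *Ndufs1*, at 133, 172, 170 and 153 CPM in L3-L5 DRG (adjusted p = 0.253 by edgeR for a log2 fold change of -0.82 with a standard error of 0.36). *Atp5a1* (-0.65) and *Atp5s* (-0.80), a coupling factor that is no subunit, followed. Cell type markers moved with this comparison too. The 8 satellite glia markers summed to 13352 to 33041 CPM in L3-L5 DRG, below every TG library (34585 to 65829). For the 11 sensory neuron markers the sums in TG ran from 1435 to 5455 CPM, with a median of 4143, and those in L3-L5 DRG from 2313 to 15118, with a median of 8658. The 5 Schwann cell markers were at 7926 to 45242 CPM in L3-L5 DRG, 7 macrophage markers at 59.6 to 4556, 6 fibroblast markers at 542 to 6671, 7 neutrophil markers at 5.26 to 590 and 7 endothelial and mural markers at 32.2 to 1537, and each of these ranges overlapped that of TG. Their part in the result was not tested.

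Between TG and NG/JG, 71 of 74 genes tested had positive log2 fold changes (TG over NG/JG), with a median of 1.18 beside -0.05 over all genes. None passed the adjusted threshold in edgeR, as 6 of 11769 genes did in all (0.051%). At an unadjusted p under 0.05, 39 of 74 genes were higher in TG, beside 5.54% of all genes, and DESeq2 called 5 of 75, beside 6.39%. With all 16 libraries in one fit, 20 were called, all higher in TG, beside 3.40%. Without TG library 1, edgeR called 23 genes, beside 325 among all genes, with a median of 1.499. *Ndufb11* was at 32.1, 17.9, 32.1 and 71.1 CPM in NG/JG (adjusted p = 0.133 by edgeR for a log2 fold change of 2.45 with a standard error of 0.57), followed by *Ndufa13* (1.99) and *Ndufa6* (1.90). In the other direction stood *Ndufs1* (-0.88), *Atp5a1* (-0.46) and *Atp5sl* (-0.40), now named *Dmac2*, an assembly factor, each with an adjusted p of at least 0.625 by edgeR. The 7 macrophage markers, which summed to 15.6 to 2305 CPM in NG/JG, all had positive fold changes in this comparison. The 6 fibroblast markers summed to 291 to 3901 CPM in NG/JG, below every TG library (4552 to 7247). The 5 Schwann cell markers summed to 8169 to 29084 CPM in NG/JG, with a median of 13190 against 33524 in TG, and the 8 satellite glia markers to 31842 to 46227. The 11 immediate-early and dissociation genes summed to 15904 to 53614 CPM in NG/JG, and all 11 had negative fold changes. The part of these markers in the result was not tested. The 3 comparisons with TG share its 4 libraries and are not independent.

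The remaining ganglia differed less. In the comparison of L3-L5 DRG with T10-L1 DRG, 66 of 75 genes had positive log2 fold changes (L3-L5 DRG over T10-L1 DRG), with a median of 0.32 beside 0.03 over all genes. After adjustment 0 genes passed with edgeR (0.00% of all genes) or with DESeq2 (0.488%), and 3 had an unadjusted p under 0.05, beside 3.35% of all genes in that direction. The L3-L5 DRG libraries were all above the T10-L1 DRG libraries in CPM for 12 of 75 genes, beside 2.17% of all genes. *Ndufa5* was at 103, 116, 88.7 and 118 CPM against 70.8, 64.6, 56.2 and 51.5 (adjusted p = 0.785 by edgeR for a log2 fold change of 0.77 with a standard error of 0.23). *Atp5s* (1.35) and *Ndufa4* (0.66) had the next lowest p, and *Cox7a1* (-1.17), *Cox6b2* (-0.64) and *Ndufa4l2* (-0.87) were on the other side.

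Between NG/JG and T10-L1 DRG, 63 of 75 genes had positive log2 fold changes (NG/JG over T10-L1 DRG), with a median of 0.43 beside 0.02. None was called by edgeR (0.032% of all genes were), 9 had an unadjusted p under 0.05 in that direction, beside 1.85% of all genes, 1 in the other, beside 4.06%, and DESeq2 called 3, beside 6.14%. The 5 small subunits of complex III had a median of 1.08, and 4 of them were among the 9. *Cox6c* was at 165, 261, 211 and 228 CPM in NG/JG and at 113, 127, 84.3 and 115 in T10-L1 DRG, without overlap (adjusted p = 0.258 by edgeR for a log2 fold change of 1.06 with a standard error of 0.31). *Uqcr11* (1.09) and *Cox7a2* (0.99) followed, also without overlap. All NG/JG libraries were above all T10-L1 DRG libraries for 6 of 75 genes, beside 1.63% of all genes. *Ndufa4l2* was at 0 reads in all 4 NG/JG libraries and at 13.8, 3.6, 1.2 and 9.2 CPM in T10-L1 DRG. Against the limit of 3 reads over all NG/JG libraries its level in T10-L1 DRG was at least 68.3-fold higher (adjusted p = 0.126 by edgeR). The 7 endothelial and mural markers moved the same way, summing to 59.5 to 271 CPM in NG/JG and 384 to 1217 in T10-L1 DRG. Among them *Rgs5*, a marker of mural cells, was at 0.10 to 0.23 CPM in NG/JG and 89.5 to 258 in T10-L1 DRG. The 7 neutrophil markers summed to 0.34 to 32.1 CPM in NG/JG, with *Retnlg* at 0, and to 100.5 to 1050 in T10-L1 DRG. Their part in the level of *Ndufa4l2* was not tested. *Cox4i2* (-1.98) and *Ndufb11* (-0.49) had the next lowest p on that side, with an adjusted p of 1.00 each by edgeR.

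Between NG/JG and L3-L5 DRG, 47 of 73 genes tested had positive log2 fold changes (NG/JG over L3-L5 DRG), with a median of 0.12 beside 0.01. None was called by edgeR, and 0 had an unadjusted p under 0.05, beside 6.04% of all genes in either direction. DESeq2 called *Ndufa4l2*, which is at 0 reads in NG/JG, beside 4.82% of all genes. The largest departures by p were *Cox6c* (0.67), *Cox7a2* (0.69) and *Uqcr11* (0.67) on one side and *Ndufs4* (-0.79), *Atp5s* (-1.37) and *Uqcrc2* (-0.40) on the other. The order of the ganglia by summed level was TG, L3-L5 DRG, NG/JG and T10-L1 DRG, and the neighbours L3-L5 DRG and NG/JG differed by less than the SD of either.

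**Figure D4:**
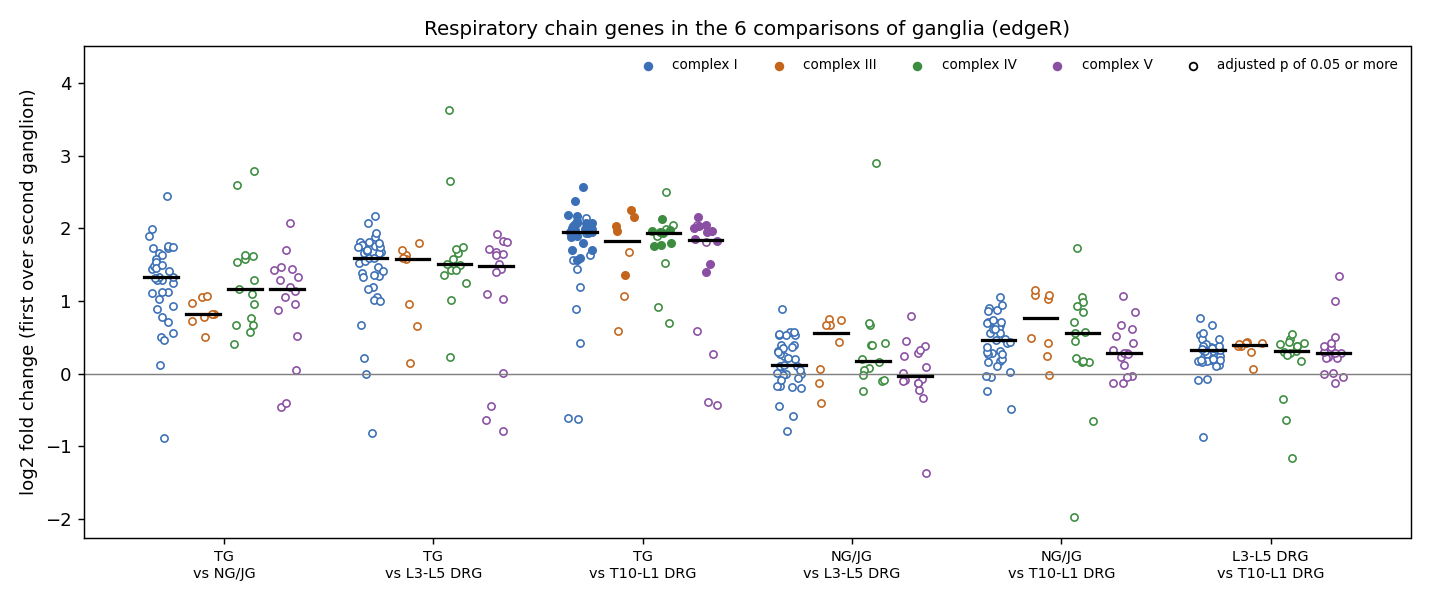
log2 fold changes (y axis, first ganglion over second, edgeR) of the genes in the 6 comparisons of 2 ganglia (x axis), coloured by complex. Filled points have an adjusted p under 0.05, open points do not, black lines are medians, and *Ndufa4l2* is left out where NG/JG is at 0 reads. Filled points occur only between TG and T10-L1 DRG, and the medians of all 4 complexes lie between 0.82 and 1.95 in the 3 comparisons with TG.

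In a test of any difference among the 4 ganglia over all 16 libraries, edgeR called 43 of 75 genes, beside 3.01% of all genes. They were 22 genes of complex I, 4 of complex III, 8 of complex IV and 9 of complex V. *Ndufa13* had the lowest adjusted p (0.00461), followed by *Cox8a* (0.00618) and *Ndufa6* (0.00733), all by edgeR. Without TG library 2, 3 or 4, 0 genes were called, and without TG library 1, 56. Without L3-L5 DRG library 1 or 2, or any 1 T10-L1 DRG library, 21 to 28 genes were called. Without a filter on low counts 16 genes were called. Calls over all genes are not given for the fits without a library or without the filter. A shift of these genes therefore cannot be told apart there from a shift of calls over all genes. DESeq2 called 57, beside 12.7% of all genes.

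**Figure D5:**
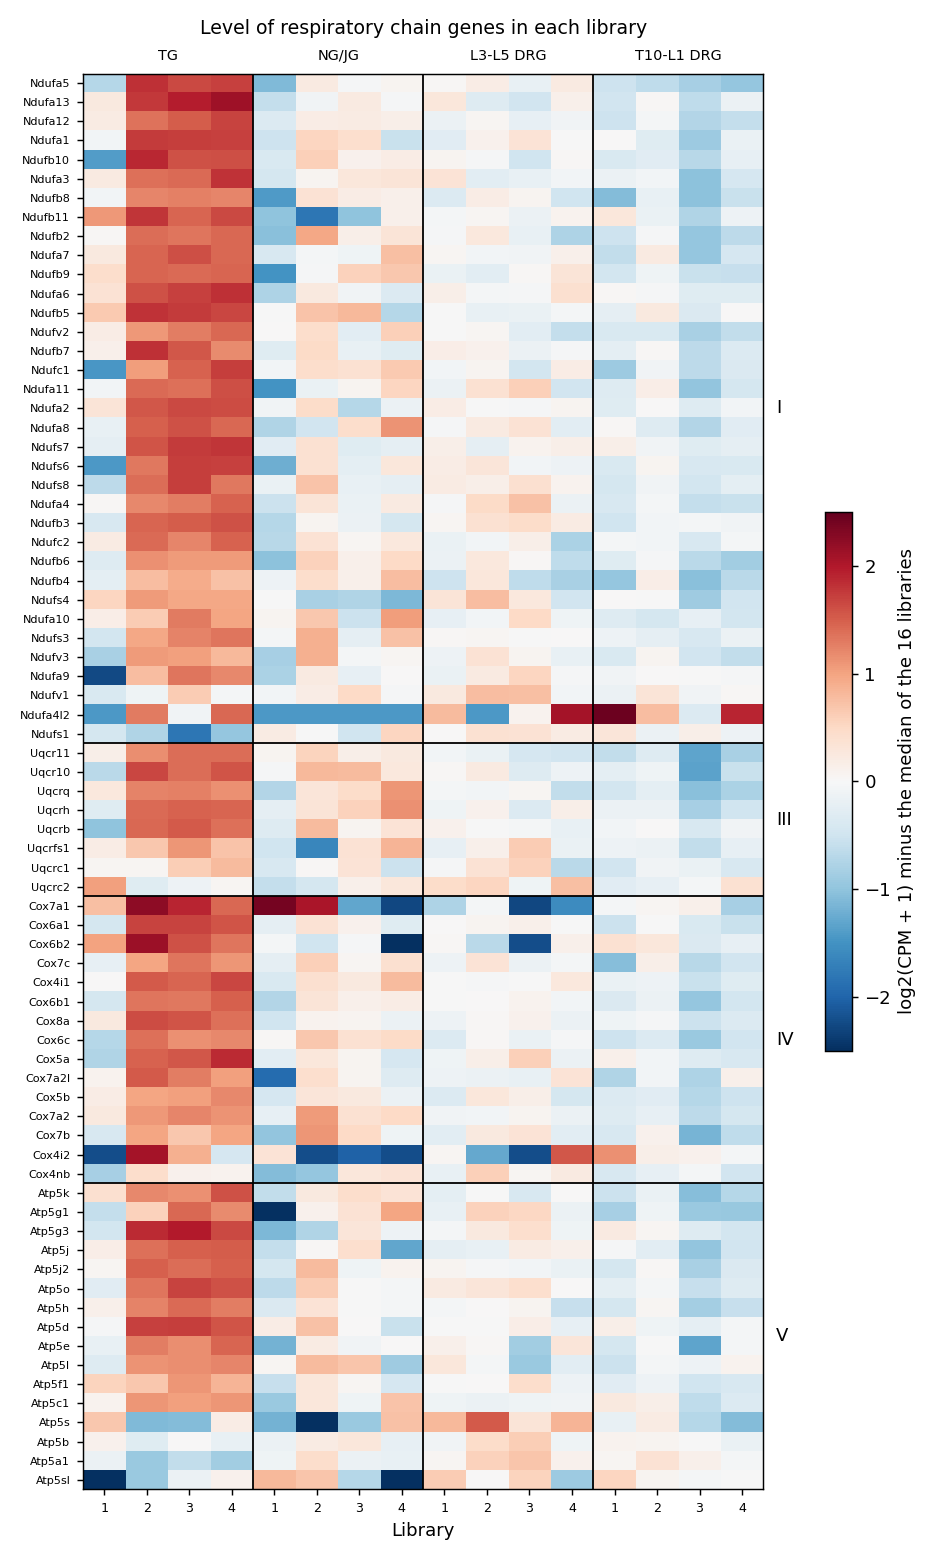
Level of 1 gene per row (grouped by complex I, III, IV and V and ordered within it by the fold change of TG over T10-L1 DRG) in each library (columns). Colour gives log2(CPM + 1) minus the median of the gene over 16 libraries, red above and blue below, with the scale ending at 2.5 on each side. TG libraries 2 to 4 are red for most rows, and *Ndufs1*, *Atp5a1*, *Atp5b* and *Uqcrc2* are among those that are not.

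Several subunits have isoforms that replace each other by tissue. *Cox7a1*, the isoform of heart and skeletal muscle, made up 7.77% ± 2.07 (SD, n = 4) of the RPKM of *Cox7a1* and *Cox7a2* in TG, 5.02% ± 1.87 in T10-L1 DRG, 1.84% ± 1.89 in L3-L5 DRG and 8.72% ± 11.4 in NG/JG. In CPM it was at 7.1, 21.8, 17.0 and 12.1 in TG, and in NG/JG it was at 24.2 and 19.0 in libraries 1 and 2 but 1.0 and 0 in libraries 3 and 4. The share was higher in all TG libraries than in all L3-L5 DRG libraries, by 5.93 percentage points, with p = 0.0286 in a two-sided exact permutation test. The TG share without library 1 was 8.17% ± 2.33 (SD, n = 3). A p of 0.0286 is the smallest that 4 libraries against 4 allow, and it was 0.171 after adjustment over the 18 exact tests of 3 shares in 6 pairs of ganglia.

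The c subunit of the ATP synthase ring is encoded by *Atp5g1*, *Atp5g2* and *Atp5g3*, whose mature proteins are the same. *Atp5g3* carried most of the reads, with 111, 560, 603 and 482 CPM in TG and 177, 157, 122 and 111 in T10-L1 DRG. *Atp5g1*, of which 73.8% of the stretches also occur elsewhere, made up 4.27% ± 1.15 of the RPKM of the 3 genes in TG, 3.97% ± 1.08 in T10-L1 DRG, 6.46% ± 1.00 in L3-L5 DRG and 7.69% ± 5.29 in NG/JG. L3-L5 DRG was above both TG (by 2.19 percentage points) and T10-L1 DRG (by 2.49) in all libraries, with p = 0.0286 for each in the exact permutation test and an adjusted p of 0.171. From TG libraries 2 to 4 alone the TG share was 3.92% ± 1.12 (SD, n = 3). *Cox6a2*, the muscle isoform of subunit 6a, made up 0.078% of the RPKM of *Cox6a1* and *Cox6a2* in TG and no more than 0.031% in the other ganglia, with p = 1 in all 6 exact permutation tests.

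The other pairs were described without a test. *Cox6b2*, known from testis, made up 3.58% ± 1.64 of the RPKM of its pair in TG, 2.92% ± 0.45 in T10-L1 DRG, 1.47% ± 0.99 in L3-L5 DRG and 1.54% ± 1.36 in NG/JG. Its CPM was 15.2, 34.2, 23.4 and 19.5 in TG and at most 9.5 in any library of the other ganglia. *Cox4i2*, the isoform of lung and of cells under low oxygen, made up 0.29% to 1.12% of its pair in the means of the 4 ganglia. *Ndufa4l2*, which is induced by low oxygen, made up 1.87% in T10-L1 DRG, 0.84% in L3-L5 DRG, 0.28% in TG and 0 in NG/JG of the RPKM of *Ndufa4* and *Ndufa4l2*.

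Other genes of energy metabolism were read in the same fits. Over all genes, 4.33% were called higher in TG than in T10-L1 DRG, and 5.87% were called in either direction. Of 7 genes of complex II and the electron carriers, *Sdhb*, the iron-sulfur subunit of succinate dehydrogenase (log2 fold change 1.91, TG over T10-L1 DRG), and *Cyc1*, cytochrome c1 (1.42), were higher in TG. *Sdha*, the flavoprotein that forms the largest subunit of complex II, was at -0.82 (adjusted p = 0.114 by edgeR). Of 22 assembly factors tested, 4 were higher in TG and 0 lower: *Ndufaf3*, *Surf1*, *Cox16* and the copper chaperone *Cox17* (2.06). The median over this list was 0.83. Without TG library 1, 4 genes of the first list were higher and 1 was lower, and 7 assembly factors were higher and 2 lower, with a median of 1.05. Over all genes, 3583 were called in that fit in either direction, against 758 with TG library 1.

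The citrate cycle and glycolysis lists held genes of both directions. Of 16 citrate cycle genes, *Suclg1* (1.94) and *Mdh2* (1.46) were higher in TG and *Dlat* (-1.55), a subunit of pyruvate dehydrogenase, was lower, with a median of -0.27. Of 15 glycolysis genes, *Ldhb* (2.18), a subunit of lactate dehydrogenase, was higher in TG, with a median of -0.18. None of 10 regulators of mitochondrial gene expression and none of 6 membrane carriers and pores was called, with medians of -0.01 and 0.89. Without TG library 1, 3 citrate cycle genes were higher and 8 lower (median -0.71), 4 glycolysis genes were higher and 3 lower (median -0.14), 1 regulator was lower and 5 carriers and pores were higher. These counts stand beside the same 3583 calls over all genes. In the 5 other comparisons 0 genes of these lists were called by edgeR, where at most 0.051% of all genes were called.

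Genes of the respiratory chain are known to share promoter motifs, among them those of ETS factors and YY1. Promoters of 62 of the 75 genes were found by name in the RefSeq table (GRCm38.p6, 250 bases before to 50 after the start) and searched on both strands. CCGGAAG, an ETS motif, occurred in 14 of 62, or 22.6%, beside 9.93% of all 27025 genes with promoters. AAGATGGCG, a YY1 motif, occurred in 8 of 62, or 12.9%, beside 1.64%. A motif of NRF-1 was searched as well, and its counts are not given here. The 2 motifs were counted separately, and 21 of 62 genes held at least one. The YY1 motif began 22 to 35 bases after the start in *Ndufc1*, *Atp5j2*, *Ndufs7*, *Atp5sl*, *Ndufa9*, *Ndufs6* and *Ndufs4*, each time on the strand of the gene. It lay before the start in *Atp5j*. In *Atp5sl* the same site also lay before a second annotated start. Both sites are shown with 30 bases on each side and the motif in capitals.
Atp5j, chr16:84835026-84835094 (-): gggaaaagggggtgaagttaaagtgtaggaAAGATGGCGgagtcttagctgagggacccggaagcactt
Atp5sl, chr7:25619410-25619478 (+): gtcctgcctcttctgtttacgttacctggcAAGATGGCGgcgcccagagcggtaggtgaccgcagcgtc
It began 88 bases before the start in *Atp5j*, which was higher in TG than in T10-L1 DRG (log2 fold change 2.04). In *Atp5sl*, which was not called (-0.43), the site began 53 bases before the second start. A match gives the letters and does not show that a factor binds there.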

How the data were processed

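RNA was measured in 16 libraries of sorted neurons, 4 for each ganglion. The authors aligned 50-base single reads to mm9 with TopHat2, counted reads per gene with HTSeq and deposited these raw read counts, unnormalized. Versions were not given in the sources used here. Such counting drops reads that align to more than one place or to more than one gene, and 15 of the 75 genes share exons with another listed gene. Strand was not kept by the library method.

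Groups followed the labels. Each pair of ganglia was tested on its own 8 libraries with edgeR 4.0.16 (quasi-likelihood test, TMM factors, filterByExpr) in R 4.3.3 over all genes that passed the filter, with Benjamini-Hochberg adjustment and calls at an adjusted p under 0.05. One further fit covered all 16 libraries. DESeq2 1.42.0, other scaling, no filter, a replicate block and each library left out were alternatives. Isoform shares and counts of genes without overlap were also computed without TG library 1, a choice made after seeing the data. The fits were tested on simulated data. CPM and RPKM were computed from reads on genes, RPKM with the median length of protein-coding transcripts in GENCODE M1 (NCBIM37, the build of mm9). Isoform shares were compared with exact permutation tests in scipy 1.17.1. The floor was 3 reads, and floors cover counting error only. Total reads on genes were 4735624 to 13333318 per library.

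Genes named in the text were those called in any comparison, the 3 of lowest p in each direction of each comparison, the highest and lowest of each complex, those of highest and lowest spread, isoform sets, genes under the minimum and symbols of proteins that are no subunits. The members and lists were chosen with earlier results of these data known, and no list is independent evidence. The values of 1 gene are not reported here, and it has no row in the plot of levels by gene and library, though it stays in all counts and medians.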

Additional observations from a re-analysis of the deposited data

Results flagged for a closer look

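In groups of 4 libraries, 1 library stood farther from the other 3 than Dixon's 95% critical value in 13 of 120 sets of values examined (5 sums and 25 genes in 4 ganglia). Chance alone flags about 1 in 20 groups. TG library 1 was low in 7 of them: the sum over the 75 respiratory chain genes (11049 CPM, others from 24274), complex I (4262, others from 10661), complex IV (2008, others from 5823), *Ndufb9* (256.0, others from 500.3), *Ndufa5* (61.4, others from 320), *Uqcrq* (185, others from 343) and *Atp5l* (1.40, others from 5.51). In NG/JG, *Atp5a1* was high in library 2 (850 CPM, others up to 583) and *Cox4i2* in library 1 (4.87 CPM, others up to 0.138). In L3-L5 DRG, *Cox4i1* was high in library 4 (608 CPM, others up to 506), which is the library with 66.6% of reads outside genes, and *Cox7c* in library 2 (7.25 CPM, others up to 5.28). In T10-L1 DRG, *Cox4i2* was high in library 1 (9.17 CPM, others up to 4.09) and *Atp5g1* in library 2 (8.66 CPM, others up to 4.89).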

How the results depend on the processing

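The calls between TG and T10-L1 DRG (48 genes, beside 758 among all genes) came to 0 with a replicate block, beside 0. With 1 library left out they came to 0 to 65, beside 0 to 3583 among all genes. With all 16 libraries in one fit 41 were called, beside 238, and without a filter 36, beside 427. RLE factors gave 48, beside 773. DESeq2 called 63, beside 2194 among all genes, and these 63 included all 48. Between TG and L3-L5 DRG the count of 0 (0 among all genes) became 41 with DESeq2, beside 1612 among all genes. It was 20 with all 16 libraries in one fit, beside 206, and 0 to 59 with 1 library left out, beside 0 to 2038. Between TG and NG/JG these were 5, 20 and 0 to 23, beside 856, 484 and 1 to 325 among all genes. DESeq2 called 1 gene between NG/JG and L3-L5 DRG, beside 793 among all genes, and 3 between NG/JG and T10-L1 DRG, beside 910. The test of any difference (43 genes, beside 429 among all genes) gave 16 without a filter, 21 with a replicate block and 0 to 56 with 1 library left out. Calls over all genes are not given for these alternatives. Without TG library 1, *Atp5sl* between TG and NG/JG moved from -0.40 to 0.011 (-0.821 to 0.011 with 1 library left out), the only named value that turned its direction. The replicate numbers share only a number: in no pair of ganglia did all 4 same-numbered pairs deviate together (correlation over 0.1), and the block changed no other count of calls at an adjusted p under 0.05. At an unadjusted p under 0.05 it moved the counts from 60 to 50 between TG and L3-L5 DRG, 39 to 36 between TG and NG/JG and 10 to 6 between NG/JG and T10-L1 DRG. Shares of all genes with the block at that threshold are not given. With all uniquely aligned reads in place of reads on genes as the total, the summed levels were 12379 in TG, 7305 in NG/JG, 7022 for L3-L5 DRG and 5959 for T10-L1 DRG, since reads outside genes enter the total. The largest difference between 2 ganglia in the *Atp5g1* share (3.72 percentage points) was 1.75 with the union of exons as the length, an alternative chosen after seeing the data, and 4.70 with medians of ganglia, and that in the *Cox7a1* share (6.88) was 3.66 with medians and 3.798 in shares of reads. The cause of the other shifts was not tested. Depth limits genes near the floor of 3 reads, such as *Ndufa4l2* in NG/JG, for which no fold beyond a bound can be given.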
